A study of Mus musculus with 84 samples.

Results

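Trimethylation of histone H3 at lysine 4 (H3K4me3) at gene promoters was compared between epididymal adipocytes of mice fed a high-fat diet (HFD) for 12 weeks (group H) and of age-matched chow-fed mice (group C). Both groups were 18 weeks old and held 3 libraries each, so the comparison used 6 of the 21 H3K4me3 libraries among 84 in the series. Every animal, controls included, was an AdipoERCre x NuTRAP mouse, on a background that the labels write as C576BL6 and the study's methods as C57BL/N, in which tamoxifen had switched on, before the diet started, a tag that labels the nuclei of cells with an active Adipoq promoter. Nuclei came from snap-frozen epididymal fat and were captured by that tag, so cells that became adipocytes after tamoxifen do not carry it. The mark was mapped by CUT&Tag, in which an antibody tethers a transposase that cuts and tags the marked DNA, and the labels call the libraries of a group biological replicates. A promoter covered 2000 bp up- and downstream of any of the 41438 annotated start sites of 21851 protein-coding genes (build GRCm38), and it was marked in a library when a peak overlapped it by 1 bp or more.

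H3K4me3 is deposited around start sites by the SET1 and MLL complexes and is widely found at active promoters, where it is read by parts of the transcription machinery. A promoter can also carry the Polycomb mark H3K27me3, alone or with H3K4me3, while H3K27ac marks active promoters and enhancers and H3K4me1 is most common at enhancers. White adipocytes store triglyceride in a droplet coated by perilipins, release it under beta-adrenergic control and secrete adipokines such as adiponectin. The promoters of these genes carry strong H3K4me3 in mature adipocytes.

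The sequences of 7 promoters that the results below turn on are given first, from 250 bases before to 50 bases from a start site, with matches to 3 core promoter motifs in capitals on either strand. The TATA box was searched as TATAAA. The box bound by NF-Y was searched as CCAAT, which reads ATTGG from the opposite strand. The box bound by Sp1 was searched as GGGCGG. They were read from the RefSeq copy of GRCm38 at the GENCODE start site that lay inside a peak in the most libraries. Adipoq, Plin4 and Pck1 are adipocyte promoters with less H3K4me3 in H, Cfd and Mogat1 lost their peak in H, and Cdkn1a and Tnfsf10 had more of the mark in H.
Adipoq (chr16:23146286-23146585, plus strand): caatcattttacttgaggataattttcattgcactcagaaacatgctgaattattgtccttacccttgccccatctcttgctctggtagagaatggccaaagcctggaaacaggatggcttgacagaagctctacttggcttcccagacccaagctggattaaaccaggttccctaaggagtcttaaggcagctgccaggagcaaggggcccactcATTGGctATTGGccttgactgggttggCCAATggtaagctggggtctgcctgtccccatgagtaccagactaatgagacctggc
Plin4 (chr17:56109754-56110053, minus strand): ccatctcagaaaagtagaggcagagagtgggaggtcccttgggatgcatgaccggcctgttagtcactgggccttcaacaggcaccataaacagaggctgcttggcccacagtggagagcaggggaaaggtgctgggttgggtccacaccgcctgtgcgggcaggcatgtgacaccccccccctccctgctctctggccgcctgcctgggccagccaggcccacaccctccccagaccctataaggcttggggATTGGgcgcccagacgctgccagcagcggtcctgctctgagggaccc
Pck1 (chr2:173152798-173153097, plus strand): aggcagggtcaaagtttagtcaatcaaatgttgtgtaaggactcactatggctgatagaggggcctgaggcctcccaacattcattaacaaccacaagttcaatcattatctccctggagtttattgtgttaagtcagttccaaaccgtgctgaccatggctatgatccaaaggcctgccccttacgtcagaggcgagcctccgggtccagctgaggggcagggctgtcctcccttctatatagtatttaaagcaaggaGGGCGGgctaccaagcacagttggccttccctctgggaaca
Cfd (chr10:79890603-79890902, plus strand): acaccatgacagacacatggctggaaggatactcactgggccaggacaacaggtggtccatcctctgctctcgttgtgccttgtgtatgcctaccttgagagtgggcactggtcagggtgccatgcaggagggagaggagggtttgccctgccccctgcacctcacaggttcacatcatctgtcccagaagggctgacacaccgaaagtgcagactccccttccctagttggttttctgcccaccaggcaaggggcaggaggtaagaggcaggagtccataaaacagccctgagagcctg
Mogat1 (chr1:78510919-78511218, plus strand): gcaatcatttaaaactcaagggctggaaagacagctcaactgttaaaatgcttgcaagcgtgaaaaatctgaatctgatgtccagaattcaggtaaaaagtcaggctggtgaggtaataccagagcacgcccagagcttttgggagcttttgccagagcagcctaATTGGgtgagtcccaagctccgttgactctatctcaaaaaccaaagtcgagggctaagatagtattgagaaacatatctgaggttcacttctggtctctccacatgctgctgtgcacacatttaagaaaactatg
Cdkn1a (chr17:29093519-29093818, plus strand): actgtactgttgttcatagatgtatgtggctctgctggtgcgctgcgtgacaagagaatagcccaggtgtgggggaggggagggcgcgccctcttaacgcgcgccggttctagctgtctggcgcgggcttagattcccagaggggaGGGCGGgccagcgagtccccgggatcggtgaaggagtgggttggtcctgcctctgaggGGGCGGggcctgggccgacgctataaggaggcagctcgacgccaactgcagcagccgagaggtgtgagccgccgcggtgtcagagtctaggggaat
Tnfsf10 (chr3:27316778-27317077, plus strand): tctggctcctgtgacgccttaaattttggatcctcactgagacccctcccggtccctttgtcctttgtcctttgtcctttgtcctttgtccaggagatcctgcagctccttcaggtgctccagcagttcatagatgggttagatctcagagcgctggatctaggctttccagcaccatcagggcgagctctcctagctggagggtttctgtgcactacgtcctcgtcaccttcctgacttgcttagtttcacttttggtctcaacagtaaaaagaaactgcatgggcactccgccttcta
The Adipoq stretch held 3 CCAAT matches and 0 CpG dinucleotides, the Cfd stretch 2 CpG, and the Cdkn1a stretch 23 CpG and 2 GGGCGG matches.

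Peaks were narrower in H, and their number overlapped between the groups. C libraries listed 22422, 28592 and 22444 peaks and H libraries 20974, 23137 and 11249, a mean log2 difference of -0.47 (exact permutation p = 0.3, two-sided), and median peak widths were 1439 to 1692 bp in C against 850 to 1115 bp in H. The third H library had the fewest peaks, and the second H library had more than the first and the third C library. Promoters marked numbered 12573, 13239 and 12647 in C and 11990, 12096 and 9122 in H, a mean log2 difference of -0.22 between groups that did not overlap (exact permutation p = 0.1, two-sided, the smallest that 3 against 3 allows). With the 11249 peaks of most total signal kept in each library, the numbers were 10573, 10659 and 10668 in C and 9794, 9820 and 9122 in H (log2 difference -0.15, exact permutation p = 0.1). Without the third H library the difference with all peaks was -0.09.

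**Figure D1:**
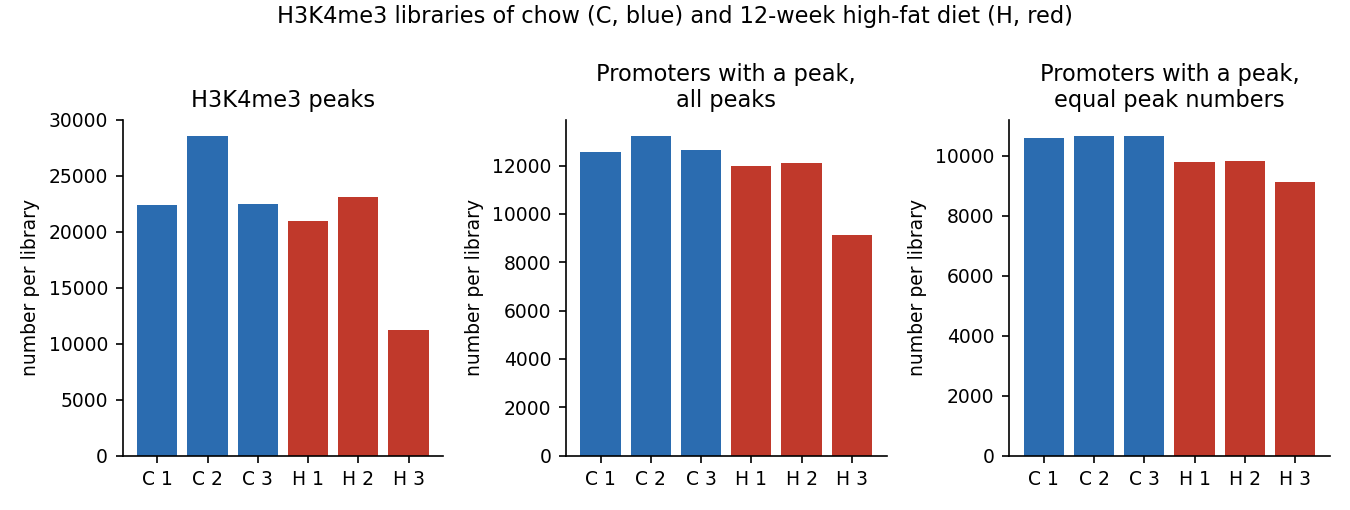
Number of H3K4me3 peaks, and of promoters with a peak with all peaks or with the top 11249 peaks by total signal, in each C library (blue) and each H library (red), as bars from 0. All 3 H libraries sit below all 3 C libraries in both promoter counts, and the third H library has the fewest peaks.

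The label of the nuclei was checked with 10 marker genes for each of 9 cell types. Adipocyte markers were marked in 10, 10 and 10 of 10 promoters in C and in 9, 8 and 9 in H, with Cidea in no H library. Their mean percentile, the rank of the peak's highest coverage among all peaks of its library with unmarked promoters at 0, was 81.8 to 88.1 in C and 43.1 to 53.0 in H. Macrophage markers were marked in 3 of 10 promoters in each C library, in 9 and 9 in the first 2 H libraries and in 0 in the third. Endothelial markers were marked in 2, 4 and 5 promoters in C, 9 and 7 in the first 2 H libraries and 0 in the third, while progenitor markers gave 7, 8 and 7 in C, 6 and 6 in the first 2 H libraries and 0 in the third. Mesothelial markers were marked in 4, 4 and 2 of 10 promoters in C and in 0 in every H library, and Krt8 and Lrrn4 were among the promoters that lost the mark. Mural markers gave 5, 5 and 4 in C and 5, 3 and 3 in H, lymphocyte markers at most 1 of 9 in any library, epithelial markers 3, 2 and 2 in C and 2, 0 and 0 in H, and neuronal markers 1 in each C library and 0 in H. The third H library, with no macrophage, endothelial, progenitor or mesothelial marker marked, was also the one with the fewest peaks. The part of other cell types in the results below was not tested. In bulk libraries such as these, fewer nuclei of a type and less mark per nucleus cannot be told apart.

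**Figure D2:**
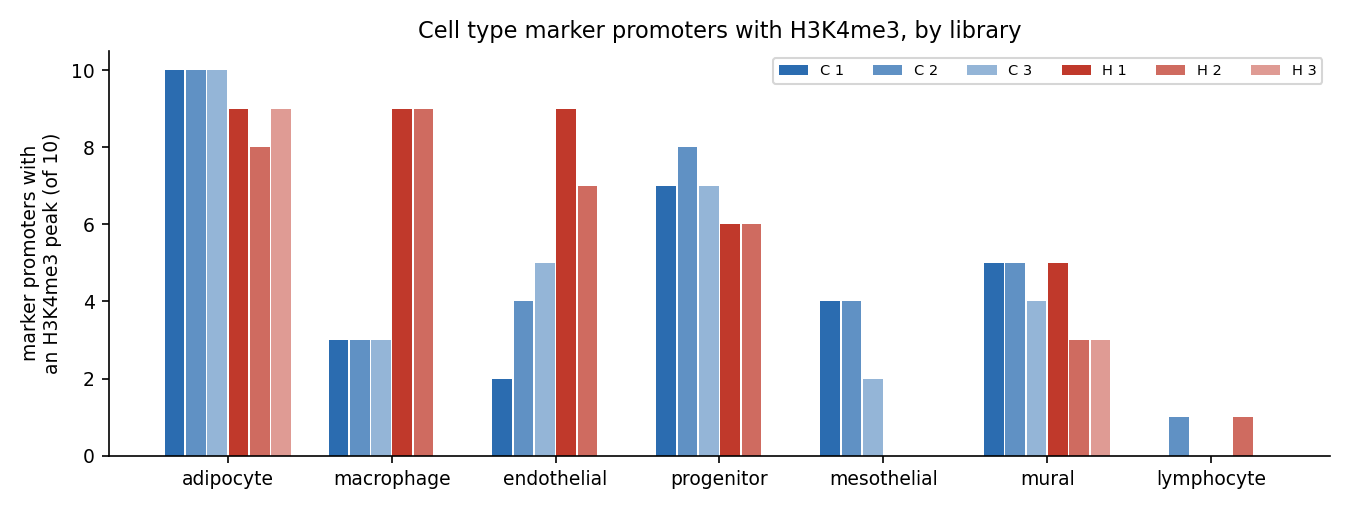
Number of marker promoters with an H3K4me3 peak, of 10 listed for each of 7 cell types (9 in the annotation for lymphocytes), in each C library (blue shades) and H library (red shades). Adipocyte markers reach 8 to 10 everywhere, and macrophage and endothelial markers are highest in the first 2 H libraries and at 0 in the third.

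Gains of a promoter peak were rare and losses more frequent. A promoter was called gained when marked in 3 of 3 H and 0 of 3 C libraries and lost when the reverse held. By this rule 1 promoter was gained (0.00458% of 21851) and 373 were lost (1.71%), in 365 groups of non-overlapping windows. Of all promoters, 9028 were marked in all 6 libraries and 8002 in none. Just outside the rule for losses, 481 promoters were marked in 3 C libraries and 1 H library and 313 in 2 C libraries and no H library. Just outside the rule for gains, 69 were marked in 2 H libraries and no C library, and 0 in 3 H libraries and 1 C library. A gain needs a peak in the third H library, which had the fewest peaks, so the rule is not even between the 2 directions. The gained promoter was that of BC107364 (chromosome 3: 96433788 to 96452306), with a highest coverage of 17, 35 and 76 fragments in the 3 H libraries and no peak in any C library. Its window carried H3K27me3 in 3 of 3 C and 2 of 2 H libraries and neither H3K27ac nor H3K4me1 in any.

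Most lost promoters had been weakly marked in C. Their mean percentile over the C libraries had a median of 38.2 (4.51 to 94.2), and 79 of 373 (21.2%) lay at or above the 50th percentile, against a median of 82.96 for the promoters marked in all 6 libraries. The 313 promoters just outside the rule with 2 C libraries had a median of 17.1. At 246 of the 373 a start site lay inside a peak in all 3 C libraries, and at 54 it lay inside a peak in none, so that the peak only reached into the window.

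The lost promoters of highest rank in C fell into 2 kinds. At 358 of the 373 no H library had a peak that overlapped the C peaks at all, whereas at 15 promoters at least 1 H library did, outside the window. Of the 10 promoters of highest rank 8 were among these 15, namely Sap25 (mean percentile 94.2), Dqx1 (91.0), Fxyd7 (82.9), Acaca (82.1), 4930415O20Rik (79.6), Vsig10l (79.6), Plin5 (73.7) and Lag3 (70.8). At each of these 8 promoters all 3 H libraries had a peak overlapping the same C peaks, and at 6 of them, other than Acaca and Plin5, no start site lay inside a C peak. Acaca encodes acetyl-CoA carboxylase, which makes malonyl-CoA for fatty acid synthesis, and Plin5 a droplet coat protein. At these 8 promoters the call records that the peak reached less far towards the start site in H, not that the peak was absent there.

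At the other named promoters the whole C peak was absent in H. Ptges (prostaglandin E synthase) had a highest coverage of 83, 92 and 159 fragments in C and no peak in H, and Gli2, a transcription factor of Hedgehog signalling, reached 112, 93 and 73 in C. Mogat1, which makes diacylglycerol from monoacylglycerol and shares its window with BC035947, reached 74, 83 and 108 fragments in C. The potassium channel promoters Kcnk3 and Kcnn2 reached 67, 106 and 142 fragments and 90, 89 and 86 fragments, Rassf6 111, 82 and 89, and Steap2 (a metalloreductase) 84, 110 and 98. None of these had a peak in any H library.

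Several lost promoters belong to adipocyte genes. Cfd, which encodes the adipokine adipsin, had a highest coverage of 82, 83 and 76 fragments in the C libraries (chromosome 10: 79890853 to 79892655), and its start site lay inside a peak in 3 of 3 of them. Apln (apelin) reached 33, 32 and 40 fragments and Cidea, which encodes a droplet protein prominent in brown and beige adipocytes, 39, 39 and 61. Prdm16 (a transcription factor of brown and beige adipocytes), Cox8b (a subunit of cytochrome c oxidase), Elovl3 (a fatty acid elongase), Bmp8a (a bone morphogenetic protein) and Esrrg (an orphan nuclear receptor) were also lost, with mean percentiles of 27.5 to 49.1 in C. Receptors of energy balance among the lost were Cnr1 (the cannabinoid receptor, 65, 106 and 52 fragments in C) and Ffar2 (a receptor for short-chain fatty acids, 40, 26 and 42). Of all the promoters named in this paragraph, only Cfd was also lost with equal peak numbers. Elovl3, Bmp8a, Esrrg, Cnr1 and Ffar2 were picked after their values were seen. H3K27ac was present at Cfd and Cox8b in 3 of 3 C libraries and in 0 of 3 H libraries.

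By list, losses are set against the 1.71% of all promoters, and against 1.36% with the equal peak numbers described below. A promoter can be lost only if marked in all 3 C libraries, and the lists differ in this. The droplet list was marked at 19 or 20 of 20 promoters in a C library and the synthesis list at 20 of 20. Potassium channels were marked at 28 to 43 of 96, and all promoters at 57.5% to 60.6%. Part of a high share among well-marked lists can thus come from their marking in C. Of the 16 adipokine promoters 2 were lost (12.5%), of 20 droplet and lipolysis promoters 2 (10%, Plin5 and Cidea), of 20 fatty acid and triglyceride synthesis promoters 2 (10%, Mogat1 and Acaca), and of 20 fatty acid uptake and oxidation promoters 0. With equal peak numbers these lists lost 1, 1, 3 and 0 promoters. At Plin5 and Acaca all 3 H libraries had a peak that overlapped the C peaks outside the window, so those calls do not record an absent peak. Of 45 aldehyde dehydrogenase and glutathione transferase promoters 3 were lost (6.67%, Gsta3, Gsta4 and Mgst2, enzymes that conjugate glutathione to reactive lipids and other compounds). Of 96 potassium channel promoters 7 were lost (7.29%), and of 110 homeobox promoters outside the Hox clusters 6 (5.45%), namely En1, En2, Pou3f1, Pou3f2, Alx1 and Pax9. With equal peak numbers the losses in these 3 lists were 1 of 45, 1 of 96 and 0 of 110. No histone, ribosomal protein, interferon-induced, chemokine, toll-like receptor or MHC class II promoter was gained or lost. With 1 promoter gained and 1.71% lost over all promoters, 0 in lists of 11 to 95 promoters is no result about these lists. With equal peak numbers 2 of 82 ribosomal protein promoters were lost (2.44%, Rpl6 and Rps4x) and 1 of 95 histone promoters was gained (Hist1h4f). Chromosome X held 33 of the 373 lost promoters (8.85%) and 35 of the 297 lost with equal peak numbers (11.8%), against 4.34% of all promoters and 3.08% of those marked in any library. It held 0 of the 77 higher and 0 of the 45 lower promoters of the height comparison below. The study used only male mice, and the reason for the share on X was not tested.

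With equal peak numbers 23 promoters were gained (0.105%) and 297 lost (1.36%). Of these losses 48 were among the 373 above, which is 12.9% of the first list and 16.2% of the second, so the lists hold mostly different genes. Of the 297, 249 were marked in at least 1 H library in the full lists, and 22 of the 23 gained promoters were marked in all 3 C libraries there. The peaks kept for the third H library are its whole list, and those kept for the other libraries the upper part of theirs. Ranking the peaks by highest coverage in place of total signal gave 21 gained and 191 lost, of which 8 and 75 were shared with the ranking by total signal.

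Of the promoters gained with equal peak numbers, Fyn (a Src-family kinase) reached percentiles of 80.5, 93.2 and 74.8 among the peaks kept in the H libraries, and Slc25a27 and Cyp39a1, which share a window, 74.9, 66.4 and 51.4. Slc37a2 (a sugar phosphate transporter), Csnk2a2 (a casein kinase subunit), Zfp456, Hist1h4f (a replication-dependent histone H4) and Racgap1, which acts in cytokinesis, followed, with Disp1, which releases Hedgehog ligands. Losses of highest rank were Sap25, Nnat, Dqx1, Cpeb1, Fxyd7, Map3k21, Nat8l and Acaca. At Sap25, Nnat, Dqx1 and Acaca a kept peak of all 3 H libraries, and at Fxyd7 of 2, overlapped the same C peaks outside the window. Nat8l makes N-acetylaspartate, and Nnat encodes neuronatin, an imprinted gene. Cfd, Mogat1, Plin5, Ptges, Gsta3 and Kcnn2 were lost by either count, and Me1 (malic enzyme), Akt1, Grb10, Npas2, Hlf, Col1a2, Col3a1 and Cyp2e1 only with equal numbers.

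The height of the mark was then compared at the 9028 promoters marked in all 6 libraries. Coverage was not scaled to depth in the files, so height was taken within a library, as the log2 of the highest coverage of the promoter's highest peak minus the library's median over these promoters. On this scale 77 promoters were higher in H (0.853%) and 45 lower (0.498%) at an adjusted p of 0.05 (limma with Benjamini-Hochberg adjustment), in 71 and 43 groups of non-overlapping windows. Differences ran from 0.90 to 2.08 on the log2 scale, with a median of 1.27, among the higher promoters and from -0.81 to -1.56, with a median of -1.13, among the lower.

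These calls were sensitive to the libraries used. Relative heights correlated at Pearson r of 0.86 to 0.87 between C libraries but at 0.64 to 0.74 between H libraries. Between an H and a C library the range was 0.65 to 0.74, so H libraries were no more alike than libraries of different groups. Without the first or the second C library limma called 0 promoters in either direction, with 985 and 845 at an unadjusted p under 0.05 against 1365 with all 6, and without the third C library it called 8 higher and 7 lower. Without the first H library it called 116 and 88, without the second 36 and 23, and without the third 289 and 158 of 11207 promoters tested. Under quantile normalization the calls were 46 higher and 41 lower, and with total signal in place of highest coverage 62 higher and 272 lower, so the split between directions depended on the measure.

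The promoters lower in H were led by adipocyte genes. Adipoq, the gene of the insulin-sensitizing hormone adiponectin (chromosome 16: 23146536 to 23158028), had relative heights of 2.92, 2.76 and 2.75 in C and 1.58, 1.52 and 1.81 in H, all log2 above the library median. All 3 H libraries lay well below every C library, and 921 of the 9028 promoters tested (10.2%) had all 3 H libraries below C. The difference at Adipoq was -1.17 ± 0.17 (SE, n = 3 against 3, adjusted p = 0.00533 by limma) or 2.26-fold. With total signal in place of highest coverage the Adipoq difference was -0.99 and did not pass the threshold (adjusted p = 0.114 by limma). Hcar1, the lactate receptor that restrains lipolysis, had 0.47, 0.58 and 0.31 in C and -1.03, -1.06 and -0.75 in H (-1.40 ± 0.24, adjusted p = 0.0105 by limma). Plin4, a perilipin of the droplet surface, had 0.50, 0.52 and 0.60 in C and -1.28, -1.38 and -0.33 in H (-1.54 ± 0.27, adjusted p = 0.0128 by limma). Its value in the third H library was the nearest to C but still below all 3. Pck1, the enzyme that starts glycerol synthesis for triglyceride storage in fat, had 0.36, 0.49 and -0.08 in C and -1.42, -1.18 and -0.79 in H (-1.39 ± 0.27, adjusted p = 0.0152 by limma).

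The other promoters of smallest p among the lower were those of Gata6, a zinc finger transcription factor (-1.21), Npr3, the clearance receptor for natriuretic peptides (-1.30), Ndufa5, a subunit of respiratory complex I that shares its window with Asb15 (-1.01), and A530016L24Rik (-1.20). With total signal in place of highest coverage the Ndufa5 difference was -0.08 (adjusted p = 0.844 by limma). Further down the order came Adrb3, the beta-adrenergic receptor that drives lipolysis in mouse fat, with 0.70, 0.57 and 0.32 in C and -0.72, -1.49 and -0.38 in H. Cidec, which fuses lipid droplets, fell by 1.15 on the log2 scale, Gpd1 (glycerol-3-phosphate dehydrogenase) by 1.24, Rbp4 (retinol binding protein) by 1.28 and Lpin1 (a phosphatidate phosphatase) by 0.86. Hoxc6 and Hoxc4, from one Hox cluster, Rxrg (retinoid X receptor gamma), Vegfa, Klb (the co-receptor for FGF21), Aoc3, Car3, Trarg1 (a regulator of glucose transporter traffic) and Slc25a1 (the mitochondrial citrate carrier) were also lower. The genes from Vegfa on in that sentence were picked after their values were seen.

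The following promoters, higher in H, had a low relative height in C. Only promoters marked in all 6 libraries were tested, so a promoter low in C entered only with a peak in every H library. Over the 11912 promoters marked in at least 4 libraries, 1 was called higher. Disp1 had -2.47, -2.73 and -2.22 in C and -0.35, -1.02 and 0.21 in H (2.08 ± 0.34, adjusted p = 0.0105 by limma, 4.24-fold). Fam111a, a protease linked to DNA replication, had -3.29, -2.51 and -2.33 in C and -0.72, -0.70 and -0.56 in H (2.05 ± 0.34). Cdkn1a, which encodes the cell cycle inhibitor p21, had -1.34, -1.12 and -0.87 in C and 0.58, 0.18 and 0.38 in H (1.49 ± 0.25, adjusted p = 0.0105 by limma). It thus moved from below to above the median promoter in all 3 H libraries. Tnfsf10, the gene of the death ligand TRAIL, had -2.13, -2.27 and -2.25 in C and -0.63, -0.14 and -0.72 in H (1.72 ± 0.30).

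The other promoters of smallest p among the higher were Adgrg1, an adhesion receptor (1.81), Bace2, an aspartyl protease (2.01), S100a6, a calcium-binding protein (1.67), and Lama5, a laminin chain of basement membranes (1.69). Cell cycle and replication genes were among the rest, with Ccnb1 (cyclin B1, 1.14) and, picked after their values were seen, Ncaph, Clspn, Gins3, Pimreg and Stmn1 (1.08 to 1.66). Hist1h2ah and Hist1h2bk, which share a window, Lamp1 (a lysosomal membrane protein, 1.31), Klf4 (1.18) and Serpinf1 (1.80) were also higher. With total signal in place of highest coverage, Disp1, Cdkn1a, Adgrg1, Bace2 and Lama5 did not pass the threshold (adjusted p = 0.0507 to 0.171 by limma). Fam111a, Tnfsf10 and S100a6 did pass it.

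**Figure D3:**
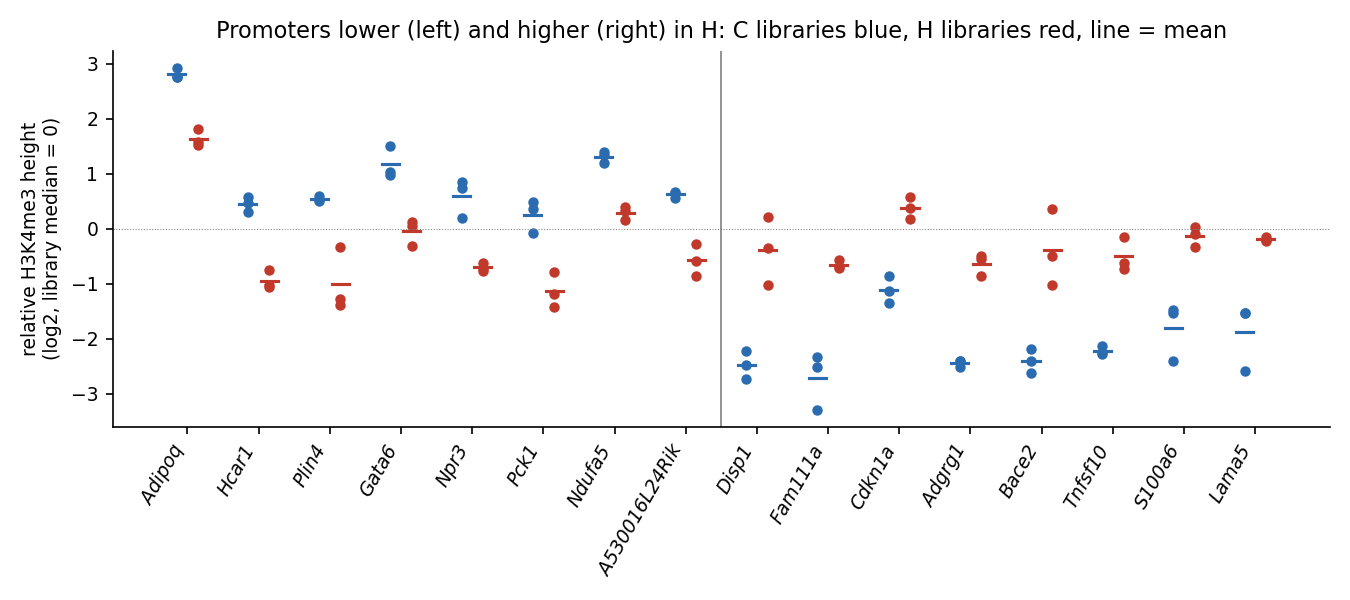
Relative H3K4me3 height (log2, library median at 0) of the 8 promoters of smallest p among those lower in H (left) and higher in H (right), with 1 point a library for C (blue) and H (red) and a line at each mean of 3. The groups do not overlap at any of the 16 promoters, which were picked by p on these same heights. Of all 9028 promoters tested, all 3 H libraries lie above every C library at 880 (9.75%) and below at 921 (10.2%). Adipoq has the greatest height of the 16 in both groups.

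The gene lists moved unevenly. In fatty acid and triglyceride synthesis 14 of the 16 promoters tested were below 0 on the log2 difference, 3 were lower at the threshold (Pck1, Lpin1 and Gpd1) and none higher, with a median of -0.57 against 0.00 and 49.8% below 0 over all 9028. In droplets and lipolysis 15 of 16 were below 0, 3 lower (Cidec, Adrb3 and Plin4) and none higher, with a median of -0.51. Among 6 adipokine promoters 4 were below 0 and Adipoq and Rbp4 were lower (median -0.47). The medians of these lists stayed below 0 in all 14 alternative fits, over ranges of -1.47 (total signal) to -0.27 (equal peak numbers) for synthesis, -1.25 (total signal) to -0.43 for droplets and lipolysis, and -0.87 to -0.17 (equal peak numbers) for adipokines. The adipokine median was -0.87 without the second H library and -0.29 without the third, with 8 promoters tested in each. Lipe, the hormone-sensitive lipase, had a difference of -0.60 (adjusted p = 0.148) and Pnpla2, the first triglyceride lipase of the pathway, 0.10 (adjusted p = 0.894), neither past the threshold of limma.

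The transcription factors of adipogenesis had a median of -0.23, with 13 of 18 below 0. Pparg, the master factor of adipogenesis, had -0.81 (adjusted p = 0.0980) and Cebpb -1.04 (adjusted p = 0.0643), neither past the limma threshold, and Klf4 was higher. Fatty acid uptake and oxidation had 4 of 16 below 0 and a median of 0.11, with none called, although 1 of 14 alternative fits put the median below 0. Of 16 insulin signalling and glucose uptake promoters none was called (median -0.13). Histone promoters had 9 of 37 below 0 and a median of 0.37, with 2 called higher, and many of them share windows. Without the third H library the histone median was 0.87 over 62 promoters. Among 19 cell cycle promoters Ccnb1 and Cdkn1a were higher and none lower (median 0.07). Leaving out 1 library moved that median over a range of 0.04 to 0.39, with 0.39 without the third H library, 0.23 without the first H library and 0.17 without the second C library. Ribosomal protein promoters had a median of 0.00, with 36 of 74 below 0 and none called.

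**Figure D4:**
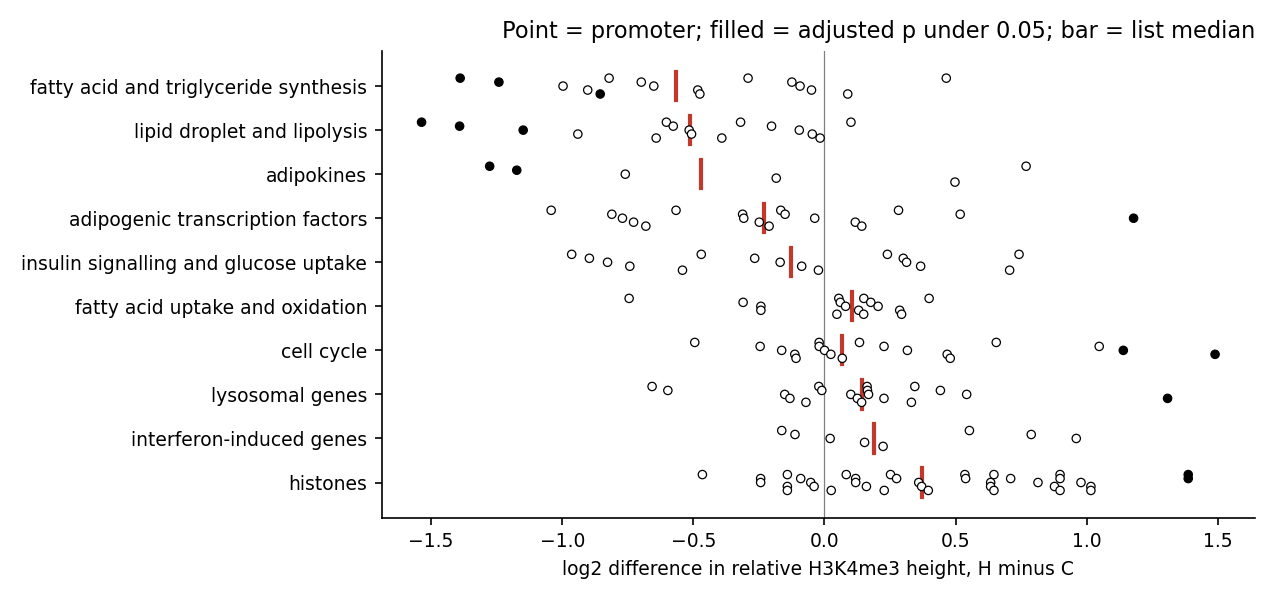
Log2 difference in relative H3K4me3 height, H minus C, of every tested promoter in 10 gene lists, with filled points past an adjusted p of 0.05 by limma and a red bar at each list's median. The synthesis and droplet lists lie mostly left of 0 with 3 filled points each, and histone promoters mostly right of it.

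The other marks at these promoters were measured in separate libraries of the same groups. According to the study, all marks were assayed on nuclei of the same fat depots. A difference between the animals of the 2 groups can therefore enter every mark, and the marks are not independent of each other. Of the 373 lost promoters, H3K27ac was present at 23.6%, 23.3% and 19.3% in the C libraries and 8.3%, 3.8% and 7.0% in H, a difference of -15.7 points (exact permutation p = 0.1, adjusted p = 0.15 over 3 marks). H3K4me1 was present at 24.1%, 21.2% and 16.6% in C and 12.1%, 9.1% and 13.7% in H (-9.03 points, exact permutation p = 0.1, adjusted p = 0.15). H3K27me3 was present at 30.6%, 34.05% and 39.9% in C and 42.1% and 46.6% in the 2 H libraries (9.52 points, exact permutation p = 0.2, the smallest that 2 against 3 allows). The groups did not overlap for any of the 3 marks, and none could pass a threshold of 0.05 at these numbers. With equal peak numbers within each mark the differences were -11.3, -10.7 and 9.47 points. Over all 21851 promoters the equal-number differences were 0.27 points for H3K27ac, -0.29 for H3K4me1 and 0.19 for H3K27me3.

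At the 45 promoters with lower H3K4me3, H3K27ac was present in 95.6%, 97.8% and 97.8% in C and 84.4%, 62.2% and 73.3% in H, without overlap (-20 points with equal peak numbers, exact permutation p = 0.1, adjusted p = 0.3 over 3 marks). Over all 9028 promoters tested H3K27ac also fell with all peaks, from a mean of 79.0% in C to 64.5% in H (-14.5 points), in groups that overlapped. With equal peak numbers the difference over the 9028 was 1.76 points. H3K27me3 was present at 11.1%, 8.9% and 20% of the 45 lower promoters in C and 31.1% and 35.6% in H. With equal peak numbers that difference was 20.4 points, against 3.23 points over all 9028 promoters tested, where the H libraries also lay above C. At the 77 higher promoters H3K27ac was present at 22.1%, 24.7% and 33.8% in C and 59.7%, 49.4% and 18.2% in H, groups that overlapped (exact permutation p = 0.4), with the third H library below every C library. With equal peak numbers it was present at 9.1%, 11.7% and 12.99% in C and 40.3%, 37.7% and 18.2% in H (20.8 points, exact permutation p = 0.1, adjusted p = 0.3 over 3 marks). The third H library was again the lowest of the 3. Values were not paired between marks.

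**Figure D5:**
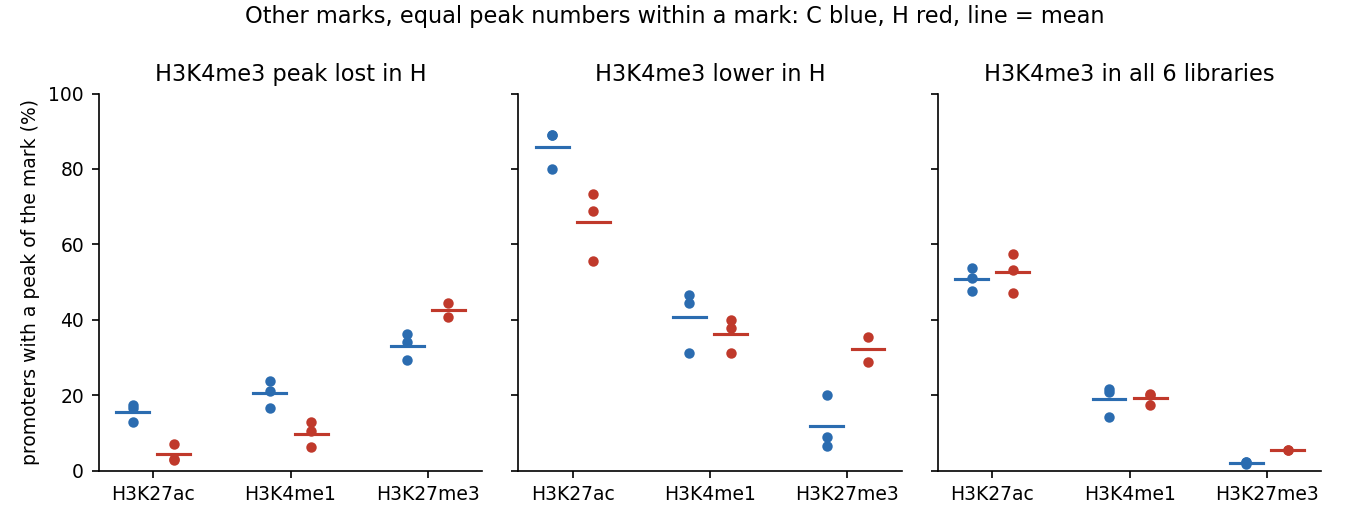
Share of promoters (%) with a peak of H3K27ac, H3K4me1 or H3K27me3 at equal peak numbers within a mark, 1 point a library for C (blue) and H (red) with a line at the mean, for the 373 lost promoters, the 45 promoters with lower height and the 9028 marked in all 6 libraries. H3K27ac shares are lower in H in the first 2 panels and overlap in the third.

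The same promoters were then looked up in the H3K4me3 libraries of the other groups, which are other animals. In the weight-loss group HC (12 weeks of HFD, then 8 weeks of chow, 26 weeks old) the lost promoters were marked at 45.8%, 19.03% and 49.1%, and in its chow control CC_s at 11.3%, 25.2% and 72.4% (exact permutation p = 1). In the 25-week cohort they were marked at 94.1% and 97.1% in the long-term HFD group HH and at 94.1% and 98.7% in its control CC_l, a difference of -0.80 points (exact permutation p = 1, in a design of 2 against 2 that cannot pass 0.05). Libraries of that cohort listed 32225 to 41976 peaks each. In HHC, HFD for 25 weeks then chow, the shares were 74.0%, 98.7% and 82.3%, and in its control CCC 99.2% and 99.7%. The titles and the treatment field disagree on 4 of the 25-week libraries. Titles were used, and with the treatment field the difference between HH and CC_l was 3.62 points.

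Relative heights at the called promoters, which the rule had taken from C and H alone, pointed the same way more often than not in the other groups. Of the lower promoters marked in every library compared, 36 of 40 were below 0 in HC minus CC_s (90.0%, against 50.1% of all tested), 35 of 45 in HH minus CC_l (77.8% against 46.1%) and 38 of 41 in HHC minus CCC (92.7% against 47.7%). Of the higher promoters 39 of 48 were above 0 in HC minus CC_s (81.2% against 49.9%), 67 of 77 in HH minus CC_l (87.0% against 53.9%) and 71 of 76 in HHC minus CCC (93.4% against 52.3%). Grouped by the treatment field, the libraries of HH minus CC_l gave the opposite, with 15.6% of the lower promoters below 0 and 16.9% of the higher above 0. For HHC minus CCC that grouping gave 85.4% of the lower below 0 (against 50.2% of all tested) and 76.3% of the higher above 0 (against 49.8%). Hcar1 had differences of -1.14, -0.65 and -0.96 in the 3 comparisons by title, and Plin4 -0.82, -0.89 and -0.97.

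The called promoters also differed in base composition, which the rules had not used. Over the 300 bases from 250 before the start site furthest upstream, the median ratio of observed to expected CpG was 0.45 at the 45 lower promoters, 0.67 at the 77 higher, 0.57 at the 373 lost, 0.79 at the 9028 marked in all 6 libraries and 0.19 at the 8002 marked in none. A ratio of at least 0.6 was reached by 35.6% of the lower, 66.2% of the higher, 48.3% of the lost and 77.3% of the promoters in all 6 libraries, against 46.4% of all promoters with sequence. The letters TATAAA, on either strand, stood in 8.89% of the lower, 9.09% of the higher and 9.38% of the lost promoters, against 12.5% of all. CCAAT stood in 42.2%, 40.3% and 31.6% of them, against 38.8% of all, and GGGCGG in 44.4%, 59.7% and 49.9%, against 44.9%. The E-box letters CACGTG stood in 8.89%, 14.3% and 11.8%, against 7.78%. The lower and higher promoters were drawn from the 9028 marked in all 6 libraries, where the shares differ from those of all promoters. There TATAAA stood in 6.15%, CCAAT in 40.9%, GGGCGG in 66.0% and CACGTG in 10.2%. TATAAA stood in 4 of the 45 lower and 7 of the 77 higher promoters, counts too small to read as a difference from that share. GGGCGG stood in 20 of 45 and 46 of 77, below the share in the 9028. No difference in motif share was tested. These are matches of letters and say nothing of factor binding.

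Leaving out the third H library, which had the fewest peaks and no marked macrophage or endothelial marker, changed the gains the most. With the first 2 H libraries alone 70 promoters were gained (0.32% of 21851) and 387 lost (1.77%). The 70 included 3 of the 10 macrophage markers (Mrc1, Lyz2 and Adgre1), 2 of the 10 endothelial markers (Emcn and Tek), 3 of 20 complement genes (C1qa, C1qb and C3ar1), and, of the chemokine, toll-like receptor and MHC class II lists, Ccl9, Tlr13 and H2-Aa. Clec10a, Clec4a1, Clec4a3, Clec12a, Cd48, Ncf1, Ptafr and Naip5, genes of myeloid cells, were also there and were picked after their values were seen. The losses held 0 macrophage and 0 endothelial markers.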

How the data were processed

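H3K4me3, H3K27ac, H3K4me1 and H3K27me3 CUT&Tag peak lists of groups C and H were used, with the H3K4me3 lists of the other groups. According to the submitters' processing notes and the study's methods, the authors trimmed reads with Trim Galore 0.6.6, aligned them to mm10 (GRCm38) with Bowtie2 2.4.4 and ran SEACR 1.3 (stringent, top 1% of signal blocks) on every library by itself, with no pooling. For a peak, the deposited lists hold its total signal and highest coverage as whole-number, unscaled fragment coverage. Read totals were not used, so the depth of each library is unknown and its effect on a missing peak was not separated from loss of the mark.

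From these lists promoters were scored with GENCODE vM21 basic protein-coding start sites, mitochondrial genes left out. The smallest p of 2 groups of 3 in an exact permutation test is 0.1. Relative heights were tested with limma 3.58.1 (R 4.3.3, trend, robust moderation) over all promoters marked in 6 of 6 libraries, after a test on simulated data. Groups came from the titles. Named promoters were the 10 or fewer gained, the 16 lost of highest mean percentile in C, 8 each way with equal peak numbers, 8 each way of smallest limma p, and up to 4 gained, lost or called members a gene list, and some promoters that meet these rules are not reported here. Promoters, gene lists and marker lists were chosen with earlier results of these data known. Alternatives were equal peak numbers, other windows, overlaps and start sites, other normalization and moderation, the replicate block and leaving out each library.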

Additional observations from a re-analysis of the deposited data

How the results depend on the processing

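The count of gained promoters was 1 with all peaks, 23 and 21 with equal peak numbers by total signal and by highest coverage, 0 with the upper 0.75 of peaks by total signal, and 1 to 70 when 1 library was left out, the 70 without the third H library. The count of lost promoters was 373, or 191 with equal peak numbers by highest coverage, and 387 to 634 when 1 library was left out, with 579 and 634 without the first and the second H library. Start sites of all protein-coding transcripts, an alternative added after the data were seen in exchange for the basic ones used throughout, kept both counts within 1.5 times. Promoters higher and lower by limma numbered 77 and 45. They were 46 (higher) under quantile normalization, 272 (lower) with total signal, 22 and 15 with equal peak numbers, 14 and 7 in a fit of all 12 libraries of the 12-week cohort, and 1 and 9 over the 11912 promoters marked in at least 4 libraries. Without 1 library they ranged from 0 to 289 and from 0 to 158, with none called without the first or the second C library. The lost promoters' share in HH minus CC_l was -0.80 points, and 3.62 points with the treatment field. The replicate block gave 94 higher and 53 lower promoters and left the log2 difference in marked promoters at -0.22 (exact sign-flip permutation p = 0.25, the smallest for 3 pairs). Same-numbered libraries did not deviate together (correlations -0.03 to -0.00), so the numbers were not taken to pair the samples. Of 208 values for the 16 named heights, 151 kept their side of the threshold and 57 no longer passed it. A fit in which a named promoter was no longer tested gave no value. With equal peak numbers only Cdkn1a, Adipoq, Hcar1, Gata6, Npr3 and Ndufa5 were tested among the 16. Adipoq had an adjusted p of 0.617 in the 12-library fit by limma. Counts of peaks, not reads, limit each value, so a promoter without a peak may still carry the mark below the peak threshold.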
